A study of Mus musculus with 3 samples.

Results

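The AP-1 and EGR immediate early factors were examined in whole mouse ovaries in which the circadian activator BMAL1 (gene Arntl) was targeted for deletion. They were the 10 genes Fos, Fosb, Fosl1, Fosl2, Jun, Junb, Jund, Egr1, Egr2 and Egr3, chosen by name. Every non-control probe annotated with one of these names was taken, which gave 13 of the 41174 probes on the array. The knockout ovaries came from Bmal1fxfxCresf-1 females (cKO), which carry the floxed Bmal1 alleles and Cre under the promoter of sf-1. The controls were Bmal1fxfx females, floxed in the same way but without Cre. SF-1 is made in steroid-producing cells of the gonad and adrenal and also in pituitary and hypothalamic cells, so Cre is not limited to the ovary, and ovarian cells without SF-1 keep the floxed gene intact. All females were C57Bl/6J, 10 weeks old, with free access to food, and were killed 3.5 days post copulation at ZT12, the hour of lights off. RNA of 3 animals was pooled for each channel of a 2-colour Agilent array, and 3 arrays each carried a different cKO pool in cy3 and a different control pool in Cy5.

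AP-1 is a dimer of a FOS-family and a JUN-family protein, or of 2 JUN-family proteins, that binds DNA through a basic leucine zipper. EGR proteins bind GC-rich DNA through zinc fingers. Many of these genes are immediate early genes: hormones, growth factors and tissue handling switch them on through MAP kinases, SRF and CREB with no need for new protein synthesis, and their short-lived RNAs then decay. In the ovary the surge of luteinizing hormone induces Egr1 and several AP-1 genes in granulosa cells, and in the rat JUND and FRA-2, the product of Fosl2, persist in luteal cells.

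Each value is the log2 of cKO signal over control signal, summarised over 3 arrays by mean and SD (n = 3). Means were tested against 0 with limma at an adjusted p of 0.05 over all probes kept after leaving out dim ones. Median spot signal was 2.42 to 2.80 times its local background in the cKO channel and 1.80 to 2.36 times in the control channel. With 3 arrays precision is limited, and p-values reflect the spread between pools, not single animals. Arrays 2 and 3 shared a slide, and array 1 was on its own. Dyes were not swapped, so a probe's dye effect and the genotype cannot be told apart. The targeted gene Arntl gave 0.27, 0.13 and -0.24 on arrays 1 to 3 (limma, adjusted p = 0.934). The labels do not say which part of the gene is removed, so its probe may lie outside that part and checks nothing. Luteal and granulosa markers were well above background in at least one genotype (9 of 10 and 10 of 10 genes). In whole ovaries, fewer cells of a type and less RNA per cell cannot be told apart.

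Read by the brightest kept probe of each gene, the EGR genes gave the largest ratios of the 10. The mean was 1.20 ± 0.39 for Egr2, 0.86 ± 0.62 for the kept probe of Egr3 and 0.56 ± 0.09 for Egr1, and all 3 genes lay above 0 on every array. By the same reading Junb and Jun followed, also above 0 on every array, but a second, dimmer Junb probe averaged 1.02, above Egr3 and Egr1. The FOS-family genes lay close to 0 or changed sign between arrays. No member passed the test. Of 26426 probes tested, 0.00378% passed, which is 1 probe, that of the steroidogenic cholesterol transporter Star at -4.09, and 0 of 12 member probes did (limma, smallest member adjusted p = 0.209). With the slide as a block no probe passed (limma, smallest adjusted p = 0.0738, 1500 probes at an unadjusted p under 0.05), and the Star call was also lost with median centring, with arrays scaled to a common spread, with no filter on dim probes and without array 1 or array 2. At an unadjusted p under 0.05, 5 of the 12 member probes lay above 0 and none below, where 5.74% of all probes lay above and 5.84% below. Log2 ratios were above 0 on all 3 arrays for 6 of the 12 member probes (18.1% of all probes) and below 0 on all 3 for none (16.5%). The members were picked with results of these arrays known, so these counts describe them and are not an independent test. The median over the 10 genes, each read by its brightest kept probe, was 0.28, against 8.3e-05 over 17892 genes read in the same way.

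**Figure D1:**
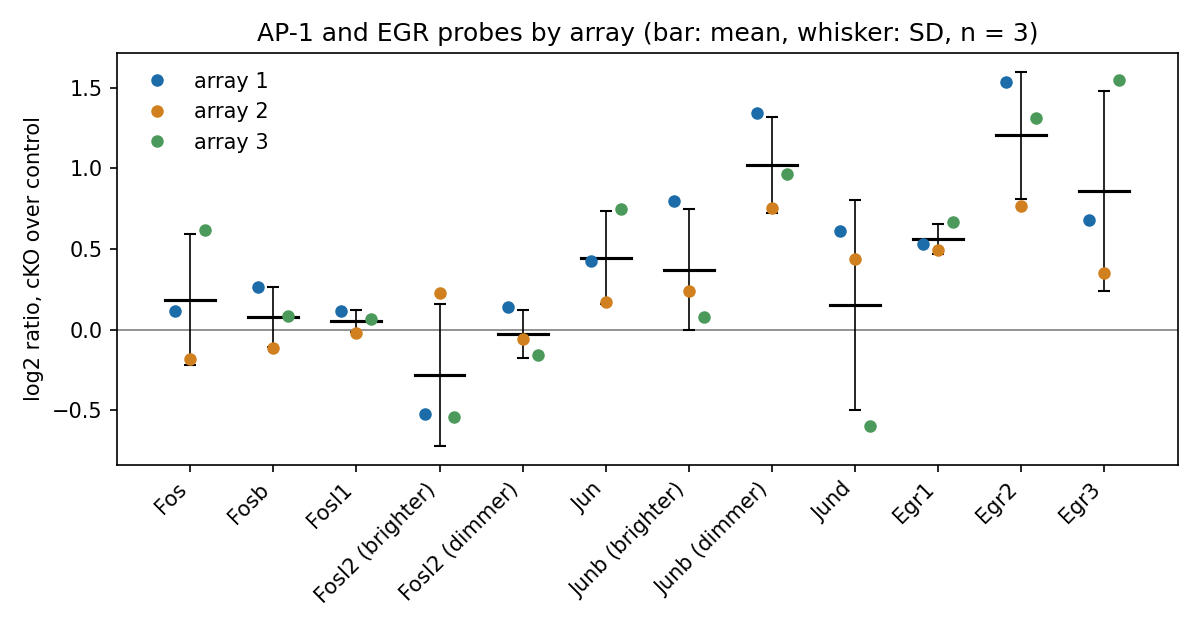
Log2 ratio of cKO over control (vertical axis) for the 12 kept member probes, with a point for each array, a bar for the mean and whiskers for the SD (n = 3). The Egr1, Egr2, Egr3, Jun and Junb probes lie above 0 on all 3 arrays, and the Fos, Fosb, Fosl1, Fosl2 and Jund probes have points on each side of 0.

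Egr2 (also Krox20), a zinc-finger factor best known from hindbrain patterning and myelination, had log2 ratios of 1.53, 0.77 and 1.31 on arrays 1 to 3. Its normalised log2 intensities were 9.58, 8.24 and 8.81 in the cKO pools, against 8.04, 7.47 and 7.50 in the control pools. Every cKO pool lay above every control pool. The mean difference was 2.30-fold (95% interval on the log2 scale 0.71 to 1.70; limma, adjusted p = 0.209). Only 0.492% of genes had a higher mean ratio, which placed Egr2 at rank 89 of 17892. The probe was printed in 10 spots on each array, and their SD was 0.25, 0.15 and 0.18, with every spot above 0 (lowest 1.14, 0.54 and 1.03). On the slide that held arrays 2 and 3 it averaged 1.04, and with the slide as a block 1.29.

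The windows just upstream of annotated starts of Egr2 and Fos are printed to compare the member with the highest ratio with a classic member near 0. Both come from RefSeq (GRCm38.p6, plus strand), 250 bases each, ending at the base before the start. RefSeq lists several starts for Egr2, of which one is shown. Capitals mark matches, on either strand, to the CArG box bound by SRF, to TGACG, which is part of the CREB motif TGACGTCA, and to TATAAA. Bases farther upstream were not searched, so a site there would be missed. The Fos window without a CArG box therefore does not show that Fos lacks one.
Egr2, chr10:67537619-67537868: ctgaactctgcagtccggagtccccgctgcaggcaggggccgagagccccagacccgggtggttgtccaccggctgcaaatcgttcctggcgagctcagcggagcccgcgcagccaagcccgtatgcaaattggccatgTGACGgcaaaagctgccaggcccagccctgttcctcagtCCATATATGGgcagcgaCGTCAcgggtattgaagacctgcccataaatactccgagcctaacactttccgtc
Fos, chr12:85473640-85473889: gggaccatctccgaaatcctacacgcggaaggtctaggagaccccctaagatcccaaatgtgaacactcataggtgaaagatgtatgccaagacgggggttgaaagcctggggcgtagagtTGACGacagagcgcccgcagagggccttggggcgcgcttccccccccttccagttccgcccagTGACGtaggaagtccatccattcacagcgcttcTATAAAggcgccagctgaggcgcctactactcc

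Windows were at hand for 7 of the 10 members, 11 windows in all, and the rest are named only. The CArG box was matched in 4 of the 5 Egr2 windows, 3 of which overlap and hold the same site, and in 1.47% of 32851 windows of that length over all genes. The CREB motif fragment TGACG was found in Egr2, Fos, Fosb and Junb windows and in 17.8% of all windows. The E-box CACGTG, the sequence bound by BMAL1 with CLOCK, was matched in 1 member window, the most upstream of Egr2, and in 6.02% of all windows. An EGR motif, GCGNGGGCG, was matched in the Fosb and Fosl2 windows and in 4.70% of all. No member window held the full CREB motif (1.55% of all windows) or the AP-1 motif TGACTCA (4.46% of all). These are matches of letters in a short window and show neither binding nor its absence.

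Egr3, a close relative of Egr2 that acts in muscle spindles and lymphocytes, was read by 2 probes. The kept probe had log2 ratios of 0.68, 0.35 and 1.55 on arrays 1 to 3, from normalised log2 intensities of 7.004, 6.73 and 7.80 in the cKO pools and 6.33, 6.38 and 6.25 in the control pools. Again the cKO and control pools did not overlap, and array 3 had the largest ratio (limma, adjusted p = 0.362; 95% interval 0.17 to 1.55). These spots were dim, and the offset of 50 added in background correction pulls ratios of dim spots toward 0. Without the offset the 3 ratios were 1.19, 0.91 and 2.95, and the scanner software's processed signals gave 2.40, 1.45 and 3.78, a ratio of 13.7-fold on array 3. The adjusted p of the kept probe was 0.278 without the offset. The other Egr3 probe exceeded background clearly on 1 of 3 arrays in the cKO channel and on none in the control channel. It was left out by the filter, and its ratios of 0.01, -0.10 and 0.10 do not follow the kept probe. The array ties the kept probe to a cDNA clone record and the probe left out to a RefSeq transcript. The Egr3 ratio thus rests on the clone-based probe alone.

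Egr1, which carries the signal of gonadotropin-releasing hormone to the Lhb promoter in the pituitary and is induced in ovulating follicles, had ratios of 0.53, 0.49 and 0.67, an SD of 0.09 about a mean of 0.56, or 1.48-fold (95% interval 0.26 to 0.87; limma, adjusted p = 0.277). Normalised log2 intensities were 11.95, 11.30 and 11.98 in the cKO pools, against 11.42, 10.80 and 11.31 in the control pools. The groups overlapped, since the cKO pool of array 2 lay below the control pools of arrays 1 and 3, although each cKO pool exceeded the control pool on its own array. Of all genes, 3.26% had a higher mean ratio. Over the 12 settings tried, the mean of Egr1 ranged from 0.51 to 0.77, that of Egr2 from 1.04 to 1.55 and that of Egr3 from 0.52 to 2.54.

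**Figure D2:**
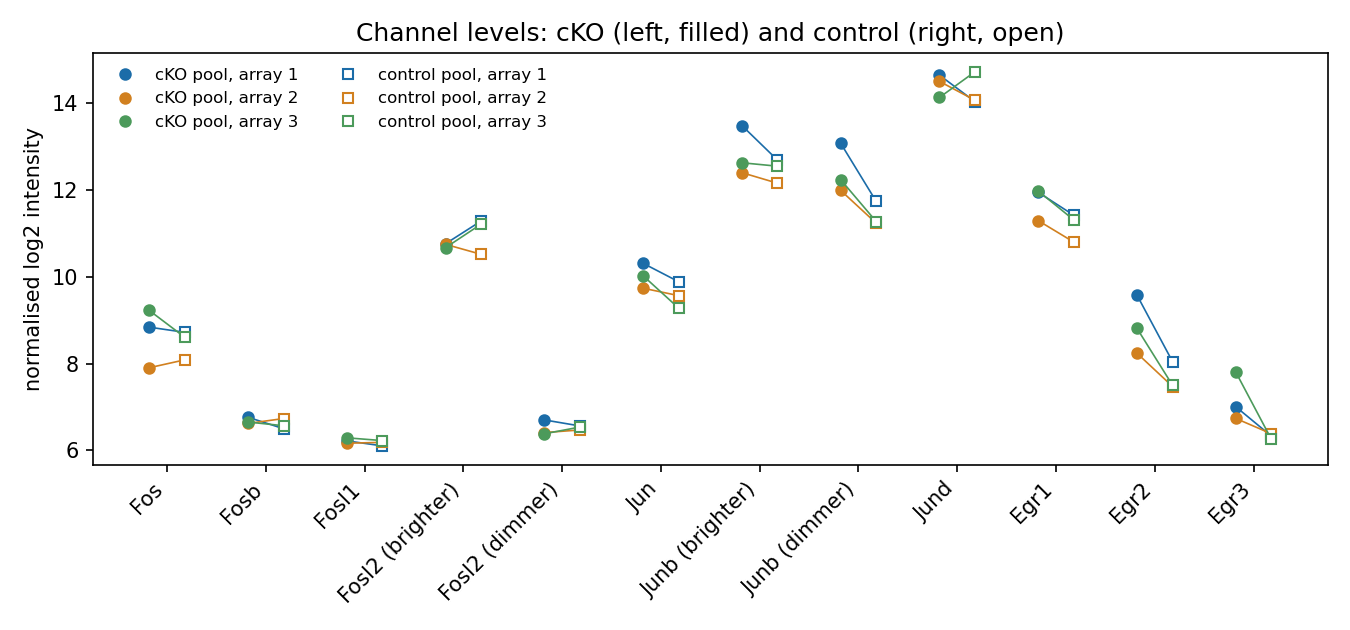
Normalised log2 intensity (vertical axis) of the 12 kept member probes, with filled points for cKO pools on the left, open squares for control pools on the right and a line joining the pools of one array. Egr2, Egr3 and the dimmer Junb probe show no overlap between genotypes, and both channels of Egr1 and Egr2 are lowest on array 2.

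Non-overlapping channel levels with cKO higher were found for 3 of the 12 member probes and for 9.84% of all probes, and with cKO lower for 0 of the 12 and 8.75% of all. These were Egr2, Egr3 and the dimmer of the Junb probes. Levels of the immediate early genes also differed between pools of one genotype. The Fos level, for example, spanned 7.90 to 9.23 among cKO pools and 8.09 to 8.72 among control pools. Each array was set on a common intensity scale, but the pools on an array share its labelling and hybridisation, so spread between pools and between arrays cannot be told apart.

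Jun, the founding AP-1 subunit, had log2 ratios of 0.42, 0.17 and 0.75 on arrays 1 to 3, with a mean of 0.45 ± 0.29 (95% interval 0.03 to 0.86; limma, adjusted p = 0.404). Its normalised log2 intensities were 10.31, 9.74 and 10.03 in the cKO pools and 9.89, 9.57 and 9.28 in the control pools, which overlap. The 10 spots of the Jun probe had an SD of 0.23, 0.17 and 0.21 within the arrays, and 1 or more spots lay below 0 on array 2 alone (lowest -0.13). Jun stayed above 0 under all 12 settings, between 0.30 and 0.67.

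Junb, a JUN-family protein that often restrains JUN activity, was read by 2 bright probes whose ratios differed. The brighter probe gave 0.80, 0.24 and 0.08 (mean 0.37 ± 0.38; limma, adjusted p = 0.523). The dimmer one gave 1.34, 0.76 and 0.97 (mean 1.02 ± 0.30, or 2.03-fold; limma, adjusted p = 0.209). For the dimmer probe the cKO pools lay at 13.08, 11.99 and 12.24, above all control pools at 11.74, 11.24 and 11.28. The 2 probes overlap in part: the last 22 bases of the dimmer are the first of the brighter, shown here because both probes read them. The rest of each 60-base probe reads a part of the transcript that the other does not.
Junb shared bases: ttcgtgtctaaagtctatttta

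The dimmer probe exceeded the brighter by 0.55, 0.51 and 0.89 on arrays 1 to 3, and by 0.56, 0.50 and 0.84 in the scanner software's signals, so the gap came in the same direction on each array. With the scanner software's signals the brighter probe gave 0.51, -0.02 and -0.22, above 0 on array 1 alone, with a mean of 0.09. The size of the Junb ratio therefore depended on the probe. Over arrays 2 and 3, on one slide, the brighter averaged 0.16 and the dimmer 0.86.

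Jund, the JUN-family member that is expressed steadily in many tissues and in rat luteal cells, was the brightest member. Its ratios of 0.61, 0.44 and -0.59 changed sign between arrays, for a mean of 0.15 ± 0.65 (95% interval -0.57 to 0.87; limma, adjusted p = 0.892). Normalised log2 intensities were 14.65, 14.51 and 14.14 in the cKO pools and 14.04, 14.07 and 14.73 in the control pools. On array 3 the order of the genotypes was thus the opposite of that on arrays 1 and 2. No Jund spot, and no spot of any member, was saturated.

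Fos, the prototype immediate early gene, gave 0.12, -0.18 and 0.62 on arrays 1 to 3, a mean of 0.19 ± 0.41 (95% interval -0.32 to 0.69; limma, adjusted p = 0.784). Its normalised log2 intensities were 8.84, 7.90 and 9.23 in the cKO pools and 8.72, 8.09 and 8.61 in the control pools. Each array carried 10 Fos spots, with an SD of 0.22, 0.14 and 0.18. On array 3 all 10 lay above 0 (lowest 0.39), while on array 2 they ran from -0.34 to 0.06. Without array 3 the mean was -0.032.

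**Figure D3:**
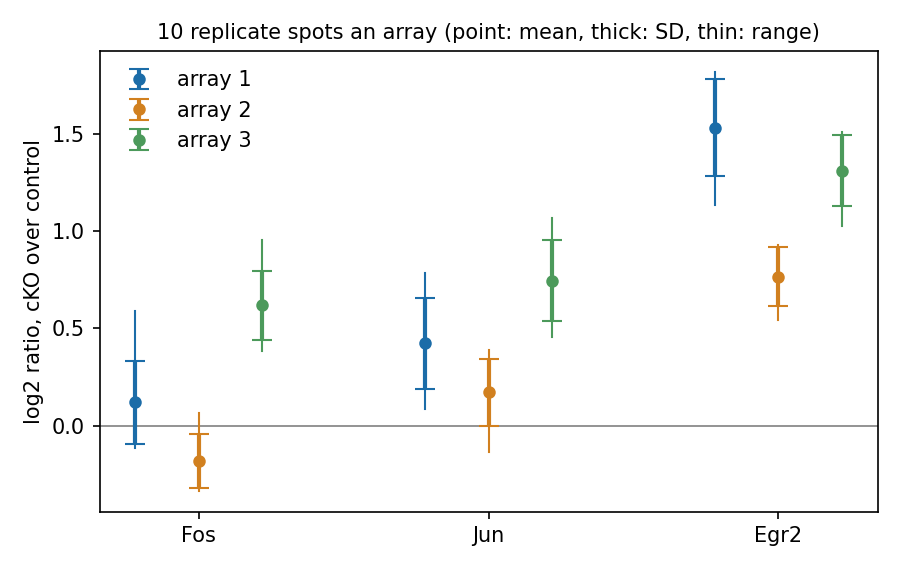
Log2 ratio of cKO over control (vertical axis) for the 3 members printed in 10 spots, by array, with points for the mean, thick bars for the SD and thin bars for the range of spots. All Egr2 spots lie above 0 on each array, Fos spots lie above 0 on array 3 and mostly below on array 2, and array 2 is lowest for all 3 genes.

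Fosb, a FOS-family protein whose splice form deltaFosB accumulates in stimulated neurons, was dim, with ratios of 0.26, -0.11 and 0.09 (mean 0.08 ± 0.19; limma, adjusted p = 0.881). Its normalised log2 intensities were 6.76, 6.62 and 6.65 in the cKO pools and 6.50, 6.73 and 6.57 in the control pools. Fosl1, encoding FRA-1, a FOS-family protein without a transactivation domain, exceeded background clearly on 3 arrays in the cKO channel and on none in the control channel. Its ratios were 0.12, -0.02 and 0.06 (mean log2 level 6.22 in cKO and 6.17 in control; 95% interval of the ratio -0.25 to 0.35; limma, adjusted p = 0.912), with the sign turned on array 2. These levels are near the detection limit, and the scanner software's signals gave 1.69, 0.59 and 0.46.

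Fosl2, which encodes FRA-2, was the only member whose brightest probe averaged below 0, with -0.52, 0.23 and -0.54 and a mean of -0.28 ± 0.44 (limma, adjusted p = 0.671). Normalised log2 intensities were 10.76, 10.75 and 10.67 in the cKO pools and 11.29, 10.52 and 11.22 in the control pools. The cKO pools were alike and the control pool of array 2 was the low one. The second, dimmer probe averaged -0.03 ± 0.15, and its sign differed from that of the brighter probe on arrays 1 and 2. With the scanner software's signals the brighter probe averaged 0.10, so that the sign of Fosl2 turned.

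**Figure D4:**
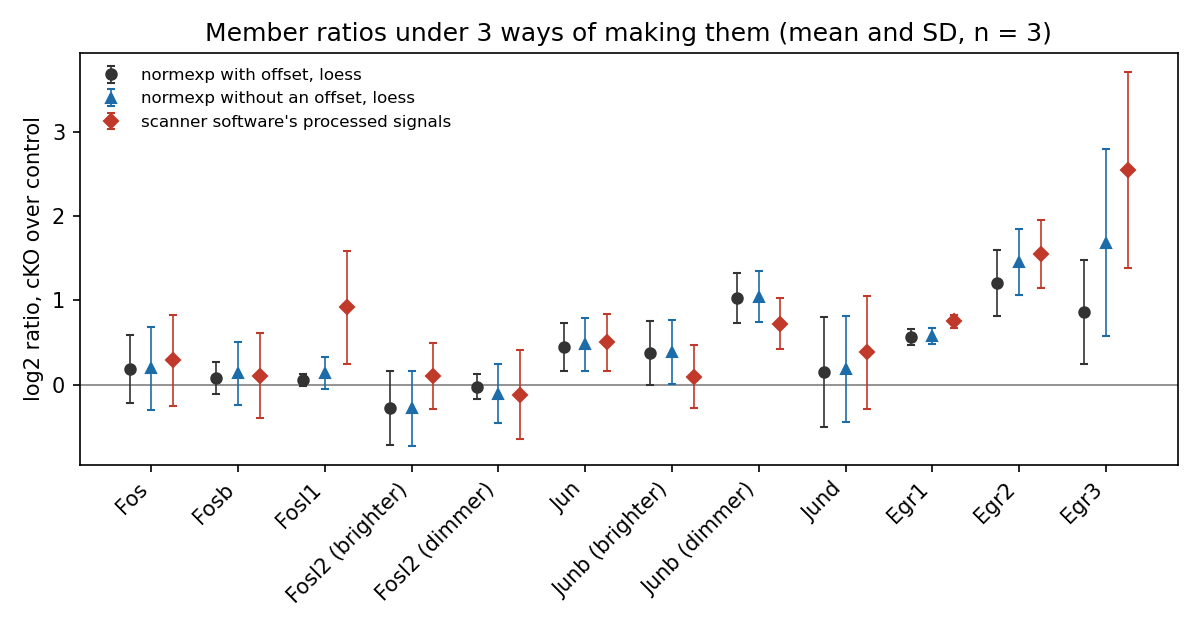
Mean log2 ratio of cKO over control (vertical axis) with SD (n = 3) for each kept member probe under 3 ways of making the ratio: normexp with an offset and loess, normexp without the offset and loess, and the scanner software's processed signals. Egr3 goes up to 1.68 without the offset and 2.54 with the scanner software's signals. In the order given, Egr1 is at 0.56, 0.58 and 0.75 and Jun at 0.45, 0.48 and 0.50.

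By family, the median gene was at 0.68, 0.49 and 1.31 on arrays 1 to 3 for the 3 EGR genes, at 0.61, 0.24 and 0.08 for the 3 JUN genes and at 0.12, -0.07 and 0.07 for the 4 FOS genes. Over the 10 genes the medians were 0.48, 0.24 and 0.35. The smallest Euclidean distance between 2 members over the 3 arrays was that of Fosb and Fosl1 (0.18), both dim genes near 0, followed by Jun and Egr1 (0.35) and Fos and Jun (0.48). Outside the members, the genes nearest to Fos over the 3 arrays were 4930405M20Rik (distance 0.021), LOC635992 (0.032), NAP113085-1 (0.045), Prps1, a phosphoribosyl pyrophosphate synthetase (0.047), and 4931428L18Rik (0.051). With 3 arrays and 17892 genes to choose from, these distances are a description and carry no test.

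The genes that work with these factors were read in 5 lists. Over all probes none of their members passed. Among 23 other immediate early genes tested, 7 had an unadjusted p under 0.05 and lay above 0, and none lay below, beside the 5.74% and 5.84% of all probes. Trib1, a pseudokinase, was at 1.36 ± 0.32 (limma, adjusted p = 0.153), Btg2, an antiproliferative gene, at 0.79 ± 0.17 and Ier5 at 0.71 ± 0.18. The other Btg2 probes gave -0.05 and 0.20. The median of this list was 0.16. Other basic leucine zipper factors, among them ATF, BATF, Maf and CREB proteins (15 genes), had a median of 0.20. The small Maf protein Maff was at 0.69 ± 0.17 and Atf2, a CRE-binding factor, at -0.71 ± 0.07. The other 3 Atf2 probes lay between -0.09 and -0.01. Of the EGR relatives and co-repressors (4 genes), Nab1, which binds and restrains EGR proteins, was at 0.53 ± 0.19, and its other probe at -0.32.

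In the MAP kinase cascade that switches these genes on (21 genes, median 0.18), Dusp1, a phosphatase that inactivates MAP kinases and is itself an immediate early gene, was at -1.23 ± 0.29 with ratios of -1.53, -1.22 and -0.95 (limma, adjusted p = 0.160). It thus stood on the side of 0 opposite to Egr1, Egr2 and Egr3 on each array. Dusp6, a phosphatase of ERK, was at 0.71 ± 0.24, and Elk3, an SRF partner, at 0.67 ± 0.32, with a second probe at 0.09. Among 18 genes known as AP-1 or EGR targets the median was 0.06, but 3 had large ratios. Spp1, or osteopontin, gave 4.31, 2.36 and 5.06 (mean 3.91 ± 1.39; limma, adjusted p = 0.185). Timp1, a metalloproteinase inhibitor, was at 2.28 ± 0.40 (limma, adjusted p = 0.0680), and the hyaluronan receptor Cd44 at 1.62 ± 0.33, with second probes at 2.04 and 1.54.

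**Figure D5:**
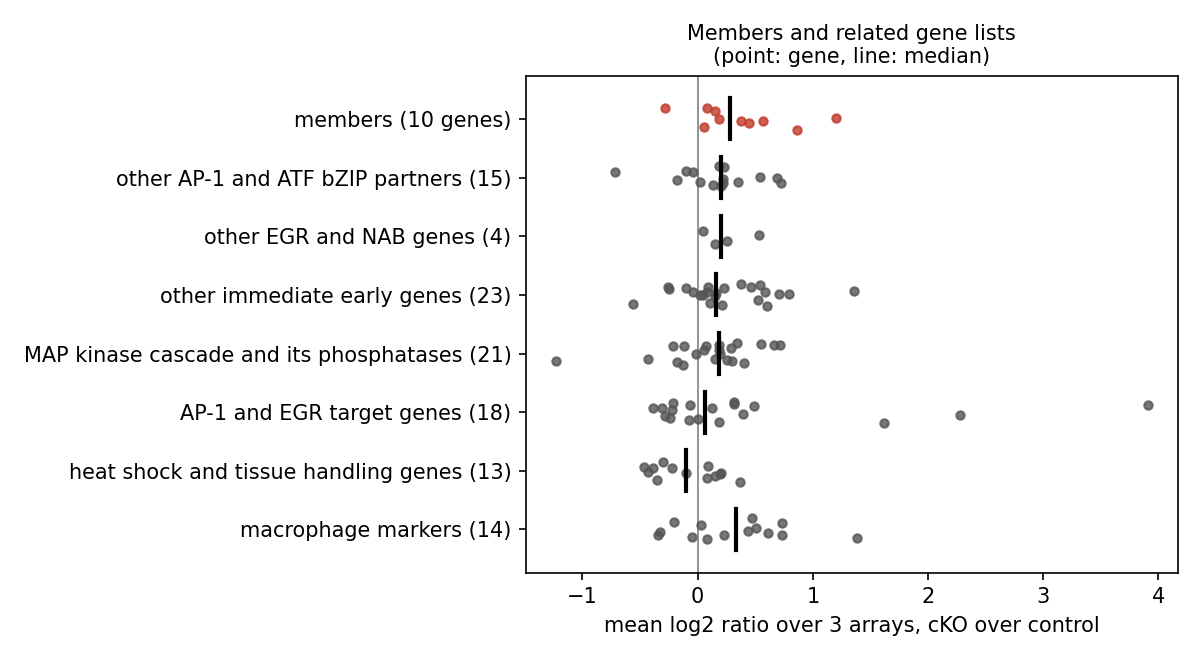
Mean log2 ratio of cKO over control across 3 arrays (horizontal axis) for the 10 members and the genes tested in 7 related lists, with a point for each gene and a line at the list's median. The member median is 0.28, and Spp1, Timp1 and Cd44 stand far to the right among the targets while Dusp1 stands left in the MAP kinase list.

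Macrophages express Egr2, Spp1 and Cd44, and their markers moved between arrays. The list of 14 macrophage markers tested, of 15 names, had medians of 0.79, 0.69 and -0.46 on arrays 1 to 3. Of the 14 means 10 were above 0, where the median over all genes was 8.3e-05. On all arrays 2 genes were above 0 and 1 below, beside 18.1% and 16.5% of all probes. With an unadjusted p under 0.05 (limma), 2 lay above 0 and 1 below, beside 5.74% and 5.84% of all probes. All 14 were above background in at least one genotype. Their summed level, as log2 of summed normalised intensity, was 16.22, 15.59 and 15.04 in the cKO pools and 14.39, 14.54 and 14.98 in the control pools. Lyz2 was at 1.38 ± 1.01, with a second probe at 1.37, and Fcgr1 at 0.74 ± 0.47. The second Fcgr1 probe averaged 0.08, with -0.73 on array 3. Mrc1 was at -0.32 ± 0.11. On arrays 1 to 3 the Egr2 ratios were 1.53, 0.77 and 1.31, and those of Spp1 were 4.31, 2.36 and 5.06. The 10 fibroblast and matrix markers, all tested, had a median of 0.53, with medians of 0.48, 0.88 and 0.09 on arrays 1 to 3. At an unadjusted p under 0.05 (limma), 4 of the 10 lay above 0 and 1 below, beside the 5.74% and 5.84% of all probes. On all arrays 5 were above 0 and 2 below, beside 18.1% and 16.5% of all probes. The 2 below were Fbn1 at -0.45 ± 0.31 and Lum at -0.28 ± 0.23. Col5a1, a fibrillar collagen chain, was at 1.25 ± 0.15 (limma, adjusted p = 0.104), and the type I collagen chains Col1a1 and Col1a2 at 1.02 ± 0.40 and 0.68 ± 0.53. Second probes of Col5a1 and Col1a1 gave 0.14 and 0.36, the one of Col1a1 with -1.21 on array 3. The summed level of this list was 15.88, 15.94 and 15.35 in the cKO pools and 15.29, 15.09 and 15.09 in the control pools. The part of macrophages and fibroblasts in the member ratios was not tested. The 13 heat shock and handling genes had a median of -0.10, with medians of 0.03, -0.12 and -0.06 on arrays 1 to 3, and its named genes lay on both sides of 0. The chaperone partner Dnaja1 was at 0.37 ± 0.21 and above 0 on each array, but its other probes gave -0.61 and 0.36. The mitochondrial chaperonin Hspd1 was at -0.43 ± 0.24, with a second probe at -0.52, and Hspa1a, the inducible heat shock protein, at -0.35 ± 0.29, with a second probe at 0.32. The part of tissue handling was not tested either.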

How the data were processed

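RNA of pooled ovaries was measured on 2-colour Agilent arrays, cKO in cy3 and control in Cy5 per the labels; 1 genotype label on arrays 2 and 3 carries another number after the Cre name, and these were grouped by title. The deposited intensity values of spots and local background are as scanned; per the file headers the software was Agilent Feature Extraction, version 9.1.3.1. The log10 ratios that the authors deposited set red over green processed signal, after background subtraction, detrending and dye normalisation by that software; the deposited value table holds the same values (largest difference 0).

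Here mean signals were corrected by normexp (offset 50) and loess in limma 3.58.1 under R 4.3.3, with 1639 control spots at weight 0, outlier spots left out and spots of a probe averaged. Probes well above background in one channel on all 3 arrays were kept (26426 of 41174). Channel levels also had average intensities set to common quantiles. Ratios were tested with lmFit and eBayes (intercept only, two-sided, Benjamini-Hochberg over all kept probes). The step was run on simulated ratios with shifts larger than any member's. That run does not show whether changes of the members' size would be found. Each array pairs 1 cKO and 1 control pool. Genes carry the array's names.

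Members and lists were chosen with earlier results of these data known. All member probes were named, plus, in each list, genes past the threshold and up to 3 with the largest mean of 1 sign on all arrays. Fbn1 and Lum were named besides, as fibroblast markers below 0 on all arrays. One gene that the rule names is not reported here. Promoters came from RefSeq GRCm38.p6. Lists for luteal, granulosa, smooth muscle, endothelial, surface epithelium and oocyte markers were also read. Of the genes that the rule names in them, only Star is reported. Their medians were -0.30, -0.11, 0.05, -0.12, 0.04 and -0.14, but several moved widely between arrays. On arrays 1 to 3 the medians were 0.28, 0.89 and -0.98 for smooth muscle and 1.10, -0.25 and -0.63 for surface epithelium. They were -0.09, -0.38 and -0.57 for luteal and -0.42, -0.11 and 0.01 for granulosa markers. Endothelial markers gave 0.05, 0.27 and -0.17, and oocyte markers -0.26, -0.32 and 0.23. The part of these cell types in the member ratios was not tested.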

Additional observations from a re-analysis of the deposited data

How the results depend on the processing

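No member probe passed the threshold under any of the 11 alternatives to the fit reported, where limma's smallest adjusted p for a member ran from 0.0939 (without array 3) to 1.00 (without array 1, within one slide). Between 3 and 6 member probes had an unadjusted p under 0.05. Jun, Junb, Egr1, Egr2 and Egr3 averaged above 0 in all 12 settings. Other signs turned: Fosl2 was 0.10 with the scanner software's signals, and leaving out an array in turn gave -0.032 (without array 3) to 0.37 for Fos, -0.014 (without array 1) to 0.17 for Fosb and -0.079 (without array 1) to 0.52 for Jund. The median of the 10 genes, 0.28, was 0.44 with the scanner software's signals, 0.46 with median centring, which moved the median of all genes to 0.12, and 0.19 to 0.40 on leaving out an array. The count of called probes, 1, was 59 with the scanner software's signals (30 higher), 50 with both channels above background (22 higher), 40 with 1 probe a gene (18 higher), 77 without the offset (37 higher, an alternative chosen after seeing the data), and 0 with median centring, scaled arrays, no filter or the slide as a block; leaving out an array gave 0 to 21. These 0 counts came with 1500 to 4452 probes at an unadjusted p under 0.05 (limma), or 1008 and 1923 without arrays 1 and 2. No further paired analysis was run, because each array already is a ratio within a pair and the test of these ratios against 0 is the paired one. Signal over background limits Fosb, Fosl1, Egr3 and the dimmer Fosl2 probe.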
